A study of Mus musculus with 10 samples.

Results

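Bone morphogenetic protein (BMP) signalling was examined through 10 genes of the pathway, namely the ligands Bmp2, Bmp4 and Bmp6, the receptors Bmpr1a and Bmpr2, the antagonist Grem1, the inhibitory SMAD gene Smad6 and the response genes Id1, Id2 and Id3. They were chosen by symbol from 35705 genes, with earlier results of these data known. The TPM values of each gene's transcripts had first been summed, and all 10 reached the mean of 1 TPM required of a gene to be tested. TPM is a transcript abundance per length, scaled to a fixed total in each library. The samples were 10 mice, 5 wild-type controls and 5 Mir324-null mice, which lack the microRNA gene Mir324, each giving 1 library of total RNA from dissected medial knee cartilage. Neither group received a treatment, and the labels give no age, sex, strain or litter, and no promoter or Cre driver for the null allele. The question put to the genes was whether their levels differ in knee cartilage without this microRNA.

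BMP ligands are secreted dimers that bring together type I receptors such as BMPR1A and type II receptors such as BMPR2. The receptors phosphorylate SMAD1, SMAD5 and SMAD9, which enter the nucleus with SMAD4 and switch on target genes, among them the Id genes, whose proteins bind helix-loop-helix transcription factors and keep them off DNA, and Smad6, which feeds back to block the receptors. Extracellular antagonists such as gremlin and noggin trap the ligands. The pathway is best known in the skeleton for driving cartilage formation, chondrocyte maturation and osteoblast differentiation.

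All 10 genes had a lower mean in the null mice, by 0.24 (Bmp6) to 0.63 (Grem1) on the log2(TPM + 1) scale, and none passed the test after adjustment over all genes. The limma p, adjusted by Benjamini-Hochberg over 13841 genes, ran for the members from 0.319 to 0.652, and 0 of the 10 were under 0.05, as were 0 of all genes tested (0%). At an unadjusted limma p under 0.05 stood 5 of the 10, all lower in null mice: Grem1, Smad6, Id3, Bmpr2 and Bmpr1a. Of all genes tested, 7.3% were lower and 4.28% higher at that threshold. As the members were chosen with earlier results of these data known, these shares are a description and not a test of the list. A difference below 0 was found for 60% of all genes tested, whose median difference was -0.045, while the median of the members was -0.34. The unadjusted count of members was 1 (Grem1) when either wild-type replicate 1 or Mir324-null replicate 5 was left out, and 8 without wild-type replicate 3. Of all genes, 4.46%, 4.84% and 8.74% were lower in these fits, in that order. The members' count was 3 without wild-type replicate 5, and 2 when wild-type replicate 4, Mir324-null replicate 1 or Mir324-null replicate 4 was left out. There, 7.68%, 5.50%, 4.54% and 5.00% of all genes were lower, in that order. The members' count was also 2 (Smad6 and Grem1) when TPM was rescaled without the haemoglobin genes. Under that scaling 577 of all genes were lower and 1216 higher at the same threshold, against 1011 and 592 with TPM as deposited. Median ratio scaling gave 888 lower and 875 higher, with the same count of 5 members.

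**Figure D1:**
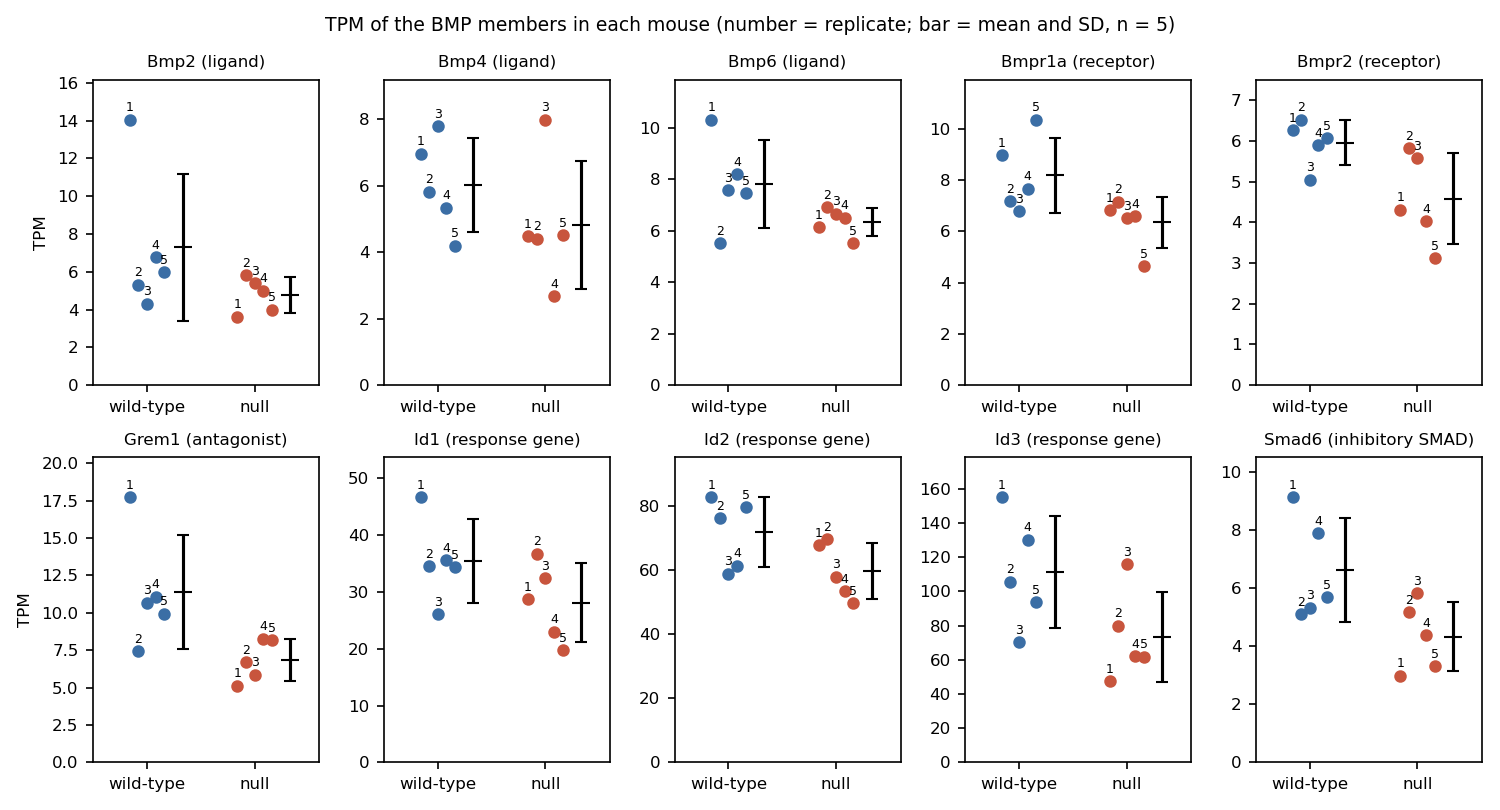
TPM (vertical axis, from 0) of each of the 10 BMP genes in the 5 wild-type (blue) and 5 Mir324-null (red) mice, with replicate numbers beside the points and the mean and SD of each group as a bar. The groups overlap in all 10 panels, and wild-type replicate 1 is the highest mouse in 7 of them.

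No level of the deleted microRNA gene is used here, which leaves the genotype of each mouse as labelled, without a check. The labels name the cell type as chondrocyte, and the libraries held other cells as well. Haemoglobin genes took up 11.2% to 19.7% of the TPM in wild-type and 15.8% to 26.1% in null mice. Of 8 cartilage markers, 6 were tested, with Prg4 at 2320 and Col2a1 at 75.2 TPM on average, while Col9a1 and Matn3 averaged under 1 TPM and Matn3 was at 0 in some libraries. Markers of osteoblasts and osteocytes, like those of several lists below, were lower in null mice. The summed level of the osteoblast and osteocyte markers was 7466 to 15026 TPM in wild-type mice against 3786 to 7154 TPM in the null group, without overlap. Of these markers 9 of 9 were lower at an unadjusted limma p under 0.05. The corresponding counts were 4 of 6 tested for cartilage, 6 of 6 for osteoclasts, 4 of 6 for adipocytes, 4 of 7 for the B lineage, 2 of 8 for endothelium, 1 of 7 for marrow stroma, and 0 for macrophages and neutrophils, while 5 of 8 erythroid and 2 of 7 tested fibroblast markers were higher. Of 7 skeletal muscle markers 2 were tested, Mylpf (10.6 to 27.5 TPM) and Tnnt3 (0.246 to 11.2 TPM), neither under the threshold, and Myh4, Myh1 and Tnnc2 were at 0 in some libraries. Their sum was 13.3 to 17.3 TPM in wild-type mice against 14.9 to 55.8 TPM in the null group. Wild-type and null sums were 1952 to 6175 and 1639 to 2943 TPM for cartilage, 1435 to 3242 and 942 to 1933 TPM for osteoclasts, and 336 to 560 and 244 to 412 TPM for adipocytes. They were 436 to 532 and 242 to 471 TPM for the B lineage, and 127 to 183 and 109 to 155 TPM for endothelium. For erythroid cells they were 112712 to 198971 and 159377 to 263791 TPM. No marker of these 6 lists was at 0 in any library except Matn3. Neutrophil sums were 55632 to 109003 TPM in wild-type and 54585 to 111430 TPM in null mice. Those of marrow stroma were 701 to 976 and 588 to 861 TPM. The part of these markers in the BMP differences was not tested, and in bulk tissue fewer cells of a type cannot be told apart from less RNA per cell.

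The sequences below show the 2 mature strands of the deleted microRNA. Every perfect match to the seeds of these strands in the longest annotated 3′ UTR of the 10 genes is shown too. A microRNA acts on messenger RNAs that carry such matches, usually by lowering them. The mature strands are RefSeq's (GRCm38.p6), read from the plus strand of chromosome 11, at chr11:70012060-70012082 and chr11:70012095-70012114, with the seed (bases 2 to 8) in capitals. The sites are 30-base stretches of GENCODE M21 transcripts (GRCm38), with the match in capitals.
miR-324-5p: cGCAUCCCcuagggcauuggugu
miR-324-3p: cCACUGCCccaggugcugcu
Bmpr2, site for miR-324-5p: gtttggtcagctGGGATGCtgactggagct
Grem1, site for miR-324-5p: ttatgcctactaGGGATGCtgtcctctgag
Id3, site for miR-324-5p: agagggtgtgggGGGATGCgagtggctgcc
Bmpr1a, site for miR-324-3p: aattataaggcaGGCAGTGagcgctctagt

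The Bmpr2 site lies in exon 13 of 13 (chr1:59872245-59872274, plus strand), in a 3′ UTR of 8529 bases. The Grem1 site lies in exon 2 of 2 (chr2:113748051-113748080, minus strand), in a 3′ UTR of 3436 bases. The Id3 site lies in exon 3 of 3 (chr4:136145157-136145186, plus strand), in a 3′ UTR of 536 bases. The Bmpr1a site lies in exon 13 of 13 (chr14:34412694-34412723, minus strand), in a 3′ UTR of 3810 bases, and is the one site followed by an A, the longer 8-base form. Among 12601 tested genes searched in the same way, GGGATGC was found in 8.50% and GGCAGTG in 15.4%, and the median 3′ UTR was 1149 bases long. Bmp2, Bmp4, Bmp6, Id1, Id2 and Smad6 held no such match in this window. For Id1 and Id2 the longest 3′ UTR belonged to transcripts with 4.97% and 10.0% of the gene's TPM on average. The 3′ UTRs of their leading transcripts were not searched separately. All 4 genes with a site were among the 5 lower in null mice at an unadjusted limma p under 0.05, and Smad6 had no site. Over all genes searched, that threshold was met in the lower direction by 75 of 1071 genes with GGGATGC (7.003%) and 144 of 1939 genes with GGCAGTG (7.43%), against 7.51% of all 12601. Of the 4 genes only Grem1 stayed under it without wild-type replicate 1, without Mir324-null replicate 5 or with a replicate block. Genes with a site that were higher in null mice were not counted. Whether the sites had a part in these differences was not tested.

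Among the ligands, Bmp2 (ENSMUSG00000027358, chromosome 2, 133552159 to 133562885, GRCm38) is an inducer of bone and cartilage. In wild-type mice 1 to 5 it stood at 14.0, 5.33, 4.31, 6.78 and 5.996 TPM, and in null mice 1 to 5 at 3.63, 5.84, 5.42, 5.00 and 4.00 TPM. Wild-type replicate 1 lay far above the other mice, wild-type replicates 4 and 5 just above every null mouse, and wild-type replicates 2 and 3 within the null range. The wild-type and null means of Bmp2 were 7.29 ± 3.88 and 4.78 ± 0.936 TPM (SD, n = 5), a log2 difference of -0.43 (SE 0.249, adjusted limma p = 0.542, exact permutation p = 0.127). Without wild-type replicate 1 the difference was -0.19.

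Bmp4 (ENSMUSG00000021835, chromosome 14, 46383520 to 46390669), a close relative of Bmp2, stood at 6.96, 5.82, 7.78, 5.34 and 4.19 TPM in wild-type mice and at 4.47, 4.40, 7.98, 2.68 and 4.51 TPM in null mice. The highest mouse of all, null replicate 3, and the lowest, null replicate 4, were both null. The means were 6.02 ± 1.40 and 4.81 ± 1.93 TPM (SD, n = 5), a log2 difference of -0.31 (SE 0.222, adjusted limma p = 0.652, exact permutation p = 0.246), which was -0.16 without Mir324-null replicate 4 and -0.48 without Mir324-null replicate 3 (unadjusted limma p = 0.0283). Its estimate was also the one most divided among transcripts. The share of its leading transcript ran from 26.6% to 100.0% of the gene's TPM in a library. A second coding transcript took up to 46.7% and an intron-retaining one up to 39.1%. Exons of Bmp4 share 89 bases with the protein coding gene Gm15217 on the opposite strand.

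Bmp6 (ENSMUSG00000039004, chromosome 13, 38345107 to 38500302), known in iron regulation through liver endothelium as well as in bone, stood at 10.3, 5.52, 7.58, 8.21 and 7.46 TPM in wild-type mice. The null mice lay at 6.15, 6.91, 6.67, 6.51 and 5.53 TPM. Of the wild-type mice 4 lay above every null mouse, and wild-type replicate 2 was the lowest of the 10, just under null replicate 5. The means of Bmp6 were 7.82 ± 1.72 and 6.35 ± 0.538 TPM (SD, n = 5), a log2 difference of -0.24 (SE 0.144, adjusted limma p = 0.560, exact permutation p = 0.119). It was -0.15 without wild-type replicate 1. Exons of Bmp6 share 224 bases with Txndc5 on the opposite strand, at 67.4 TPM on average, and since the use of strand is not given in the sources used here, reads there cannot be told apart.

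The receptors were less variable in wild-type mice than the ligands. Bmpr1a (ENSMUSG00000021796, chromosome 14, 34410734 to 34503341), a type I receptor for BMP2 and BMP4, stood at 8.96, 7.18, 6.78, 7.66 and 10.3 TPM in wild-type mice and at 6.84, 7.16, 6.52, 6.59 and 4.65 TPM in null mice. The groups met only at wild-type replicate 3, which lay below null replicates 1 and 2, and null replicate 5 lay well below the rest. Bmpr1a averaged 8.19 ± 1.46 and 6.35 ± 0.983 TPM (SD, n = 5), a log2 difference of -0.32 (SE 0.144, 95% confidence interval -0.63 to -0.01, unadjusted limma p = 0.0469, adjusted p = 0.427, exact permutation p = 0.0317). Its exons share 290 bases with the antisense gene Gm17110.

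Bmpr2 (ENSMUSG00000067336, chromosome 1, 59763400 to 59879014), the type II receptor mutated in heritable pulmonary arterial hypertension, stood at 6.27, 6.52, 5.05, 5.89 and 6.06 TPM in wild-type mice, the narrowest spread of the 10 genes (coefficient of variation 9.39%). The null mice spread more widely, at 4.32, 5.83, 5.57, 4.04 and 3.13 TPM (24.4%). Null replicates 1, 4 and 5 lay below every wild-type mouse, while null replicates 2 and 3 lay within the wild-type range. Bmpr2 averaged 5.96 ± 0.560 and 4.58 ± 1.12 TPM (SD, n = 5), a log2 difference of -0.34 (SE 0.151, 95% confidence interval -0.67 to -0.01, unadjusted limma p = 0.0451, adjusted p = 0.425, exact permutation p = 0.0476).

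Grem1 (ENSMUSG00000074934, chromosome 2, 113746164 to 113758646) encodes gremlin, which binds BMP2 and BMP4 and marks skeletal stem cells of the growth plate and joint. It stood at 17.7, 7.44, 10.7, 11.1 and 9.96 TPM in wild-type mice and at 5.13, 6.69, 5.86, 8.29 and 8.18 TPM in null mice. The 4 highest wild-type mice lay above every null mouse, and wild-type replicate 2 lay among the null mice. The means of Grem1 were 11.4 ± 3.83 and 6.83 ± 1.40 TPM (SD, n = 5), a ratio of 0.600. Its log2 difference of -0.63 (SE 0.201, 95% confidence interval -1.07 to -0.19) had the smallest unadjusted limma p of the 10 genes, 0.00883, with an adjusted p of 0.319 and an exact permutation p of 0.0238. The unadjusted limma p of Grem1 was under 0.05 in all 21 fits, the reported one and 20 alternatives, with differences of -0.76 to -0.45 and adjusted p of 0.227 to 0.586.

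Smad6 (ENSMUSG00000036867, chromosome 9, 63953076 to 64022059) encodes an inhibitory SMAD that is induced by BMP signals. Wild-type mice 1 to 5 stood at 9.15, 5.10, 5.33, 7.89 and 5.70 TPM, and null mice at 2.99, 5.19, 5.82, 4.38 and 3.33 TPM. Null replicates 1, 4 and 5 lay below every wild-type mouse, and wild-type replicates 1 and 4 above every null mouse. Smad6 averaged 6.63 ± 1.79 and 4.34 ± 1.20 TPM (SD, n = 5), a log2 difference of -0.52 (SE 0.196, 95% confidence interval -0.94 to -0.09, unadjusted limma p = 0.0224, adjusted p = 0.358, exact permutation p = 0.0556).

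The Id genes stood highest of the 10. Id3 (ENSMUSG00000007872, chromosome 4, 136143497 to 136145755) was at 155, 106, 70.4, 130.4 and 93.9 TPM in wild-type mice and at 47.3, 80.0, 116, 62.1 and 61.9 TPM in null mice. Null replicates 1, 4 and 5 lay below every wild-type mouse, and null replicate 3 lay above 3 of the 5 wild-type mice. Id3 averaged 111 ± 32.8 and 73.5 ± 26.5 TPM (SD, n = 5), a log2 difference of -0.61 (SE 0.248, 95% confidence interval -1.15 to -0.06, unadjusted limma p = 0.0316, adjusted p = 0.387, exact permutation p = 0.0794).

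Id1 (ENSMUSG00000042745, chromosome 2, 152736251 to 152737410), a classical immediate target of BMP receptors, was at 46.6, 34.5, 26.0, 35.5 and 34.4 TPM in wild-type mice and at 28.7, 36.7, 32.3, 23.0 and 19.7 TPM in null mice. Null replicate 2 lay above 4 wild-type mice, and null replicates 4 and 5 below all of them. The means of Id1 were 35.4 ± 7.35 and 28.1 ± 6.87 TPM (SD, n = 5), a log2 difference of -0.33 (SE 0.182, adjusted limma p = 0.514, exact permutation p = 0.159), which was -0.22 without Mir324-null replicate 5.

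Id2 (ENSMUSG00000020644, chromosome 12, 25093799 to 25097140), which is also needed for lymphoid cell development, was at 82.6, 76.2, 58.8, 61.3 and 79.5 TPM in wild-type mice and at 67.6, 69.5, 57.9, 53.4 and 49.7 TPM in null mice. Wild-type replicates 1, 2 and 5 lay above every null mouse, and null replicates 3, 4 and 5 below every wild-type mouse. Id2 averaged 71.7 ± 10.9 and 59.6 ± 8.69 TPM (SD, n = 5), a log2 difference of -0.26 (SE 0.130, adjusted limma p = 0.472, exact permutation p = 0.103), which was -0.17 after rescaling without the haemoglobin genes.

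**Figure D2:**
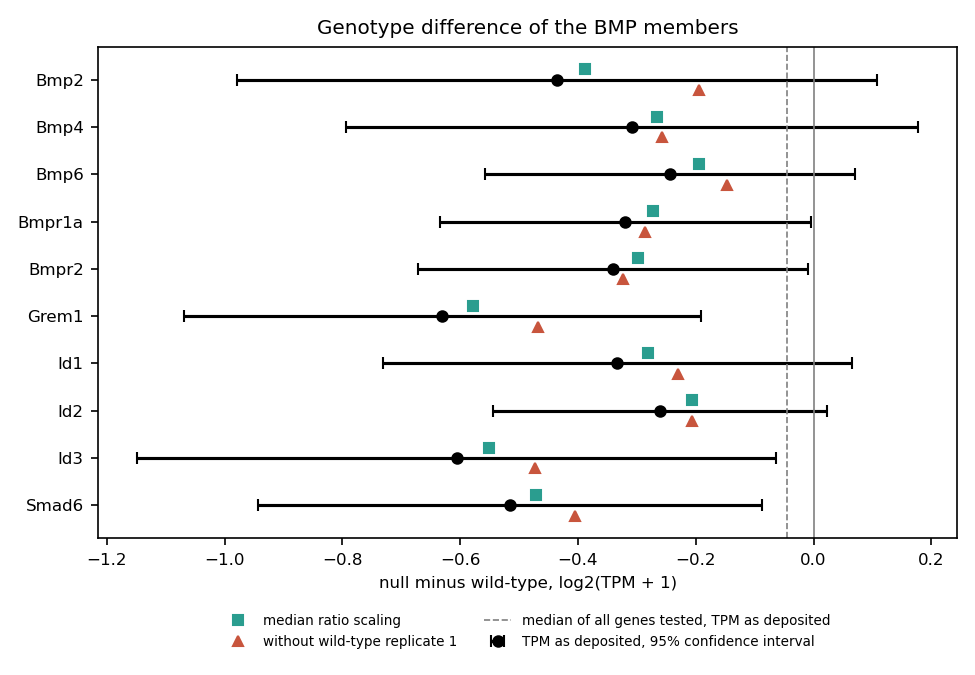
Difference of null minus wild-type mice for each of the 10 BMP genes on the log2(TPM + 1) scale (horizontal axis), with 95% confidence intervals from limma (circles and bars), the estimate after median ratio scaling (squares) and the estimate without wild-type replicate 1 (triangles). Every point lies below 0, and the intervals of Bmpr1a, Bmpr2, Grem1, Id3 and Smad6 end below 0 before any adjustment for the number of genes.

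In none of the 10 genes were the groups separate, a state reached by 1.06% of all genes tested in the downward direction. In 7 genes (Bmp2, Bmp6, Bmpr1a, Bmpr2, Grem1, Id2 and Smad6) all 5 null mice lay below the wild-type mean, and in Bmp4, Id1 and Id3 4 of 5 did. The share of all genes tested in this state was not computed. A high mouse can raise the wild-type mean, which for Bmp2 was 7.29 TPM against a wild-type median of 5.996 TPM. The extremes fell on few mice. Wild-type replicate 1 held the highest value of 7 genes, and null replicates 1 and 5 held the lowest value of 4 genes each. The library factors of median ratio scaling were largest for wild-type replicate 1 (1.13) and smallest for null replicate 5 (0.866). Null replicate 1 had a factor of 0.985. How often these mice held the extremes over all genes tested was not computed. The direction of all 10 differences was the same in each of the 20 alternatives.

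In order of mean TPM over the 10 mice, Id3 stood at 92.3, Id2 at 65.6 and Id1 at 31.7, followed by Grem1 at 9.11, Bmpr1a at 7.27, Bmp6 at 7.09, Bmp2 at 6.03, Smad6 at 5.49, Bmp4 at 5.41 and Bmpr2 at 5.27. Id3 exceeded Id2 in 9 of 10 mice, with overlapping ranges. Id2 exceeded Id1 and Id1 exceeded Grem1 in all 10, with ranges that did not overlap. From Grem1 downwards the range of each gene overlapped that of the next. Genes further apart in this order could still differ mouse by mouse, as Grem1 and Bmpr1a exceeded Bmpr2 in all 10 mice, and among neighbours Bmp6 exceeded Bmp2 in 9. Among all genes tested Id3 stood at the 91.2th percentile of level and Bmpr2 at the 26.4th. The coefficient of variation in wild-type mice had a median of 22.6% over the 10 genes and 18.4% over all genes tested, with Bmp2 the widest at 53.3%.

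To describe which of the genes varied together, their log2(TPM + 1) values were correlated over the 10 mice for all 45 pairs, with two-sided permutation tests adjusted over the 45. Pearson's r was above 0 in all 45 pairs, with a median of 0.63, and 19 pairs had an adjusted permutation p under 0.05. By Spearman's rho 13 pairs did, but 2 after median ratio scaling. The count by rho was 0 when wild-type replicate 1, Mir324-null replicate 4 or Mir324-null replicate 5 was left out. The permutations ran over all 10 mice, so a genotype difference shared by the genes of a pair enters these p values. The share among pairs of other tested genes was not computed. The closest pair was Id3 with Smad6, with r = 0.93 (permutation p = 2.0e-05, adjusted 0.000900) and rho = 0.92 (permutation p = 0.000520, adjusted 0.0164), and r = 0.83 without the 2 mice farthest from the median of Id3. Bmpr2 with Id1 followed, with r = 0.90 (permutation p = 0.000320, adjusted 0.00480) and rho = 0.84 (permutation p = 0.00399, adjusted 0.0245), and r = 0.72 without the 2 farthest mice. Bmp2 with Smad6 reached r = 0.87 (permutation p = 0.000150, adjusted 0.00337) and rho = 0.88 (permutation p = 0.00154, adjusted 0.0173), and r = 0.83 without the 2 farthest mice. The relation of Bmp2 to Grem1, with r = 0.77 (permutation p = 0.0141, adjusted 0.0334) and rho = 0.56 (permutation p = 0.0958, adjusted 0.182), rested on such mice, since r was 0.07 without them. Bmp4 stood apart, with a median r of 0.34 to the other members and no pair under the threshold.

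The correlations were lower on other scales. After centring within each genotype the median r was 0.44, with 40 of 45 above 0 and 4 pairs with an adjusted permutation p under 0.05, and Id3 with Smad6 kept r = 0.89. After median ratio scaling the median was 0.47 and 5 pairs had an adjusted permutation p under 0.05: Id3 with Smad6, Bmpr2 with Id1, Bmp2 with Smad6, Bmp2 with Id3 and Bmp6 with Grem1. Without wild-type replicate 1 the count was 5, not necessarily of the same pairs, with a median r of 0.45, and Bmp6 with Grem1 was then at r = 0.58. Without wild-type replicate 4 or Mir324-null replicate 4 there were 9 each.

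**Figure D3:**
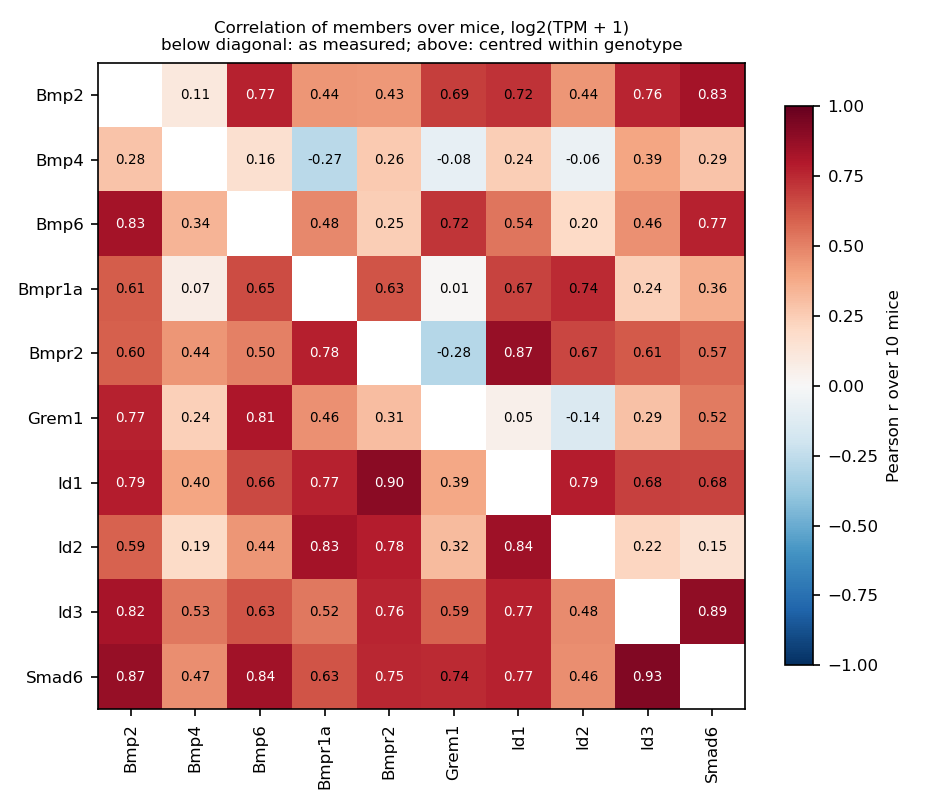
Pearson's r between the 10 BMP genes over 10 mice, from log2(TPM + 1), with values as measured below the diagonal and after centring within each genotype above it (colour scale from -1 to 1). Id3 with Smad6 is the closest pair on both sides of the diagonal, at 0.93 and 0.89, while Bmp4 is pale in its row and column.

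The genes whose profile over the 10 mice was most like that of a member were taken as the 2 highest Pearson correlations among the 10333 genes that averaged 5 TPM or more. They are given as a description, since the highest of so many correlations is large by selection and all genes of a library share its scaling. Smad6 was closest to Sparc, which encodes the bone matrix glycoprotein osteonectin (0.98), and to Trit1 (0.98). Id3 was closest to Fap, a protease of activated stromal cells (0.98), and to Pcdhgc3 (0.97). Bmpr2 was closest to Tgfbr1, the type I receptor of TGF-beta (0.99), and to Kctd12 (0.97). Id1 was closest to Olfml2a (0.97) and to Chst11, a chondroitin sulfotransferase (0.97). Bmp2 was closest to Anxa8 (0.97) and to Errfi1 (0.97), Bmp6 to Stoml1 (0.96) and Hes6 (0.95), and Bmp4 to Cfd, the adipocyte product adipsin (0.92), and Acad9 (0.91). Grem1 was closest to Gm15500 (0.99) and the ribosomal fusion gene Rps27a (0.98), Bmpr1a to Rnf103 (0.95) and Coq10a (0.95), and Id2 to Sh3bgrl3 (0.95) and Pgk1, a glycolytic enzyme (0.95).

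The rest of the pathway was described from a list of 51 other BMP genes, also chosen with earlier results known, 39 of which were tested. Of these, 37 had a lower mean in null mice and 2 a higher one, with a median difference of -0.27. Of all genes tested, 60% had a difference below 0, with a median of -0.045. After rescaling without the haemoglobin genes these medians were -0.21 and 0.04. In limma 0 of the 39 had an adjusted p under 0.05. At an unadjusted limma p under 0.05, 13 of the 39 were lower and 0 higher, against 7.3% and 4.28% of all genes tested. The count of 13 was 6 without wild-type replicate 1, 7 when wild-type replicate 4, Mir324-null replicate 1 or Mir324-null replicate 5 was left out, and 8 without Mir324-null replicate 4. The share of all genes lower in these fits was 4.46%, 5.50%, 4.54%, 4.84% and 5.00%, in that order.

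**Figure D4:**
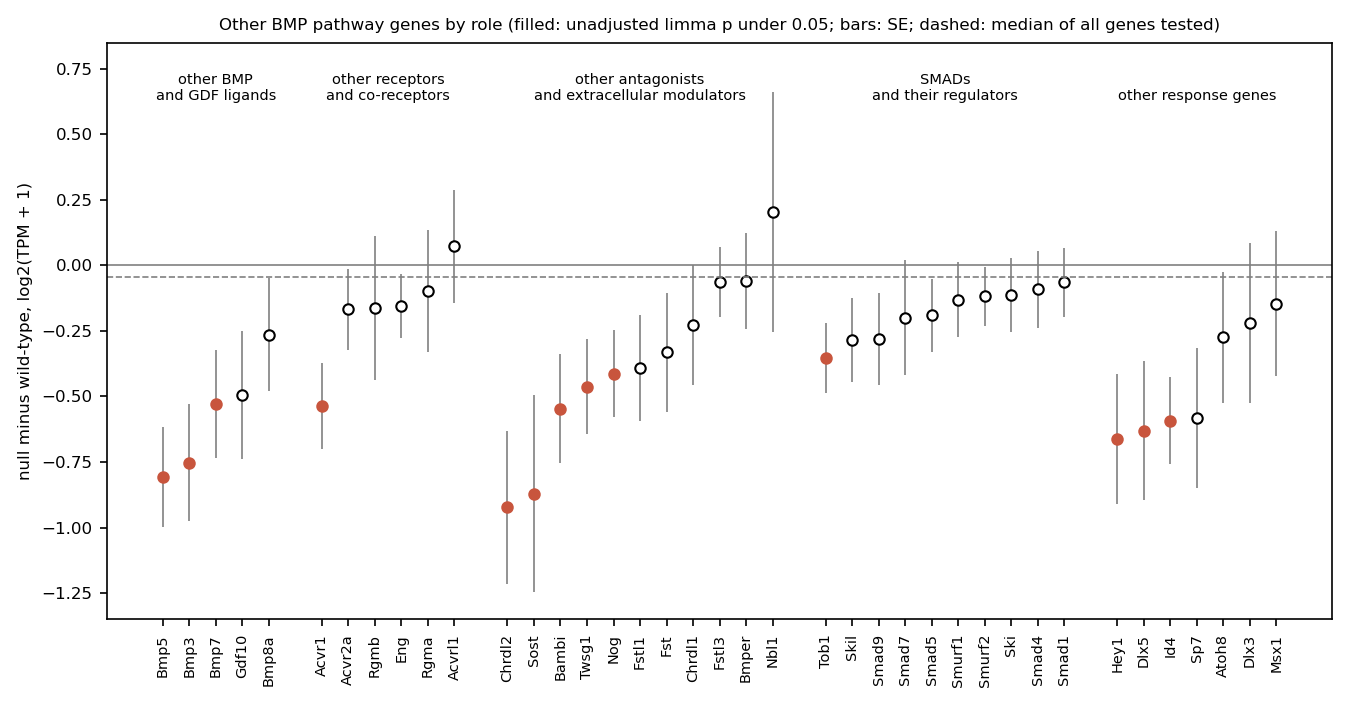
Difference of null minus wild-type mice on the log2(TPM + 1) scale (vertical axis) for the 39 tested genes of the wider BMP list, grouped by role, with SE as bars. Filled points mark the 13 genes with an unadjusted limma p under 0.05, all below 0, and the dashed line is the median of all genes tested.

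Of the other ligands, 3 of 5 tested were under the unadjusted threshold. Bmp5, whose loss gives short ears in mice, ranged over 11.01 to 21.9 TPM in wild-type mice and 5.74 to 9.72 TPM in the null group, without overlap. It averaged 15.5 ± 4.56 and 8.28 ± 1.53 TPM (SD, n = 5), a log2 difference of -0.81 (SE 0.192, adjusted limma p = 0.277, exact permutation p = 0.00794, the smallest this design allows). Bmp3, an osteocyte product that limits bone formation, averaged 10.2 ± 2.74 and 5.73 ± 2.22 TPM (SD, n = 5, log2 difference -0.75, adjusted limma p = 0.310, exact permutation p = 0.0238). Bmp7 averaged 3.03 ± 1.02 and 1.77 ± 0.580 TPM (SD, n = 5, log2 difference -0.53, adjusted limma p = 0.369, exact permutation p = 0.0476). The joint morphogen Gdf5 averaged 0.399 TPM and was not tested, and Bmp10 and Gdf2 were listed at 0 in every library.

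Of the other receptors, 1 of 6 tested was under the unadjusted threshold. This was Acvr1, the type I receptor mutated in fibrodysplasia ossificans progressiva, at 8.74 to 12.9 TPM in wild-type mice and 4.80 to 8.47 TPM in the null group, without overlap (log2 difference -0.54, SE 0.164, adjusted limma p = 0.316, exact permutation p = 0.00794). The receptors with the highest level were the endothelial genes Eng and Acvrl1. Eng averaged 28.0 ± 4.59 and 24.9 ± 2.54 TPM (SD, n = 5, log2 difference -0.16, adjusted limma p = 0.687, exact permutation p = 0.238), with a difference of -0.07 after rescaling without the haemoglobin genes and -0.09 without wild-type replicate 1. Acvrl1 averaged 16.6 ± 5.22 and 17.2 ± 4.00 TPM (SD, n = 5), and its difference of 0.07 (adjusted limma p = 0.947, exact permutation p = 0.754) was -0.07 without wild-type replicate 1.

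Of the other antagonists and extracellular modulators, 5 of 11 tested were under the unadjusted threshold. Sost, which encodes the osteocyte protein sclerostin, a blocker of Wnt co-receptors, had the highest level of the list at 215 ± 113 and 117 ± 57.1 TPM (SD, n = 5, log2 difference -0.87, adjusted limma p = 0.410, exact permutation p = 0.0873). The chordin relative Chrdl2 averaged 9.16 ± 4.17 and 4.24 ± 1.69 TPM (SD, n = 5, log2 difference -0.92, adjusted limma p = 0.319, exact permutation p = 0.0317). Bambi, a pseudoreceptor, averaged 9.77 ± 3.18 and 6.22 ± 1.34 TPM (SD, n = 5, log2 difference -0.55, adjusted limma p = 0.358, exact permutation p = 0.0476), and Twsg1, a modulator of chordin, 32.3 ± 9.03 and 22.8 ± 4.23 TPM (SD, n = 5, log2 difference -0.46, adjusted limma p = 0.371, exact permutation p = 0.0476). The fifth was Nog, which encodes noggin and is named here after its values were seen (log2 difference -0.41, adjusted limma p = 0.381, exact permutation p = 0.0159). Fstl1 averaged 44.5 ± 9.68 and 34.0 ± 9.29 TPM (SD, n = 5, log2 difference -0.39, adjusted limma p = 0.489, exact permutation p = 0.127), with a difference of -0.26 without Mir324-null replicate 1.

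The intracellular SMADs and their regulators had 10 of 10 differences below 0, against 60% of all genes tested. Their median was -0.16, as that of the other receptors was. Under the unadjusted threshold was 1 gene, the SMAD-binding Tob1 (17.6 ± 3.20 and 13.5 ± 1.57 TPM, SD, n = 5, log2 difference -0.35, adjusted limma p = 0.358, exact permutation p = 0.0317). The common partner Smad4 averaged 26.3 ± 4.31 and 24.6 ± 4.41 TPM (SD, n = 5, log2 difference -0.09, adjusted limma p = 0.888, exact permutation p = 0.548). With only protein coding transcripts summed, the Smad4 difference was -0.25 with an unadjusted limma p of 0.0366, and over all alternatives it lay between -0.25 and -0.01. The repressor Ski averaged 20.3 ± 2.49 and 18.8 ± 3.77 TPM (SD, n = 5, log2 difference -0.11, adjusted limma p = 0.838, exact permutation p = 0.421), and over all alternatives its difference lay between -0.20 and -0.02. Whether this role differed from the others was not tested.

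Of the other response genes, 3 of 7 tested were under the unadjusted threshold. Id4, the remaining Id family member, ranged over 4.64 to 8.90 TPM in wild-type mice and 3.20 to 4.26 TPM in the null group, without overlap (log2 difference -0.59, SE 0.166, adjusted limma p = 0.298, exact permutation p = 0.00794). Hey1, a target shared with Notch, averaged 7.16 ± 2.17 and 4.21 ± 1.67 TPM (SD, n = 5, log2 difference -0.66, adjusted limma p = 0.354, exact permutation p = 0.0476). The osteoblast transcription factor genes Dlx5 and Sp7 had differences of -0.63 and -0.58 (adjusted limma p = 0.395 and 0.436, exact permutation p = 0.0873 and 0.111). Id4, Bmp5 and Acvr1 were the only 3 of the 39 genes whose groups did not overlap, each lower in null mice, a state reached by 1.06% of all genes tested.

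Promoters of 8 of the 10 genes were found in RefSeq's table (GRCm38.p6), covering 250 bases before to 50 after the start, and were searched on both strands for the motifs GGCGCC, a GC-rich element bound by SMAD1 and SMAD5, and GTCTAGAC, the palindromic SMAD element. Bmp2 and Id1 were not in it. The 2 stretches shown are from the response genes with a match, since these are the genes through which BMP signals are usually read, with the motif in capitals. The Smad6 stretch is chr9:64022056-64022155 and the Id2 stretch chr12:25096243-25096342, both on the minus strand.
Smad6: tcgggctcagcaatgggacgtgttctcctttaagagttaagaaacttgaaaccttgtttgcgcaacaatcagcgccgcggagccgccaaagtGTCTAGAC
Id2: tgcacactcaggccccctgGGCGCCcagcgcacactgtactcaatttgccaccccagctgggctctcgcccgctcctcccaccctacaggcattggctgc

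GTCTAGAC was found in the Smad6 window, where it begins 4 bases before the start and spans it, and in 0.213% of the 32851 promoters of the table. GGCGCC was found in Bmpr1a, Bmpr2, Grem1 and Id2, and in 11.9% of all promoters and 21.0% of those of tested genes. These matches are descriptions of the letters in the window and not shown binding sites.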

How the data were processed

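Per the labels' protocols, RNA of knee cartilage caps was extracted with a phenol reagent and a microRNA isolation kit, and libraries were made with a low-input kit. The authors deposited 1 table of TPM values for 116912 mouse transcripts in 10 libraries. Per the submitters' processing notes, kallisto and DESeq2 were used and the build was GRCh38, a human one, although every identifier is a mouse Ensembl transcript; versions, index and strand setting are not given in the sources used here. TPM carries no counts, so depth is unknown and no count test was run.

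Transcripts were matched without version to GENCODE M21 (GRCm38; 115440 matched, the 1472 others held 0.275% to 0.356% of TPM and were left out), summed per gene, and analysed as log2(TPM + 1), which understates changes of low genes. Genes averaging 1 TPM or more (13841) were tested with limma 3.58.1 in R 4.3.3 (trend, two-sided, Benjamini-Hochberg, threshold 0.05), tested on simulated data beforehand. Exact permutation tests were two-sided over 252 splits (smallest p 0.00794), and correlations used 100000 permutations. Python 3.11.15, numpy 2.4.6, pandas 2.3.3, scipy 1.17.1 and matplotlib 3.10.9 were used.

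The members and lists were chosen with earlier results of these data known. Named beside the members were the 10 pathway genes with the smallest unadjusted p under 0.05, the 2 highest in each role, and the 2 genes most like each member. Cell type lists covered cartilage, osteoblast and osteocyte, endothelium, marrow stroma, fibroblast, adipocyte, osteoclast, macrophage, erythroid, neutrophil, B lineage and muscle. Alternatives were other pseudocounts, filters, scalings, transcript sets, a fit without trend, a replicate block and leaving out each mouse. No protein sequences were used here.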

Additional observations from a re-analysis of the deposited data

Results flagged for a closer look

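Of 56 groups of 5 mice checked for a sample far from the others (the members and the named pathway genes in each genotype), 2 were flagged, and chance flags about 1 in 20. Bmp2 was 14.0 TPM in wild-type replicate 1, while the next highest wild-type mouse had 6.78 TPM. Bmpr1a was 4.65 TPM in Mir324-null replicate 5, while the next lowest null mouse had 6.52 TPM. Without that mouse the Bmpr1a difference was -0.23, against -0.32 with it.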

How the results depend on the processing

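The 10 members kept a difference below 0 in all 20 alternatives, and 0 members and 0 other pathway genes had an adjusted limma p under 0.05 in any of them. The count of members at an unadjusted p under 0.05 was 3 with no filter on low values, 3 with a mean of at least 5 TPM and 2 after rescaling without haemoglobin genes, against 5. Of all genes, 5.39%, 7.02% and 4.17% were lower in these settings, in that order. When single mice were left out the count of members ran from 1 to 8 and that of other pathway genes from 6 to 16. The share of all genes lower at that threshold then ran from 4.46% to 9.80%. Correlated pairs ran from 5 to 22, against 19, and with median ratio scaling 5 pairs were counted. Centring within genotype gave 4 pairs. Of the named pathway genes, Smad4 and Sp7 came under an unadjusted p of 0.05 with protein coding transcripts only, while Sost left it with no filter and Tob1 with median ratio scaling. The cause of these changes was not tested, beyond the smaller number of mice. The replicate block gave 1 member and 10 other pathway genes, with 5.12% of all genes lower. Same-numbered mice correlated at -0.144 to 0.0564 after removal of group means. The labels name no pairs, and so few correlations cannot show whether mice were paired. The Acvrl1 difference turned to -0.0677 without wild-type replicate 1, to -0.00780 without Mir324-null replicate 1 and to -0.00388 without Mir324-null replicate 2, and reached 0.211 without wild-type replicate 5. Low TPM and unknown depth limit Bmp4, Smad6 and Bmpr2, each under 6 TPM on average.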
